A study of Homo sapiens with 18 samples.

Results

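Neutrophil granule proteases and progenitor markers were followed as a set of 10 genes, PRTN3, ELANE, AZU1, CTSG, MPO, CFD, LYZ, SPINK2, CD34 and FLT3, among the 58051 genes counted in THP-1 cells, a human monocytic leukaemia line. The list was chosen by read counts of these same libraries, with the higher PRTN3 count with the NIC1 construct over the empty vector in view, and its genes were found by matching Ensembl identifiers to symbols. PRTN3 values between constructs are therefore given as a description, without a test, and the calls of the other 9 genes between constructs are not independent support for any pattern of the list.

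The cells carried 1 of 3 retroviral constructs in an MSCV backbone with GFP, and GFP+ cells were sorted before use. The NIC1 groups carried MSCV-GFP-MYC-NIC1, the DNMAML groups MSCV-GFP-DNMAML, and the IRES groups the vector MSCV-GFP-IRES without an added coding sequence. In this field NIC1 denotes the active intracellular part of the NOTCH1 receptor, and DNMAML a truncated mastermind-like protein that blocks transcription driven by Notch. All groups received phorbol ester (PMA, 5 ng/ml) for 48 h, which turns THP-1 cells into adherent macrophage-like cells, and were then left without further stimulus or kept for 3 h in IL-4 at 20 ng/ml. Each of the 6 groups (NIC1, DNMAML and IRES with IL-4, and NIC1, DNMAML and IRES unstimulated) had 3 libraries from experiments numbered 1, 2 and 3. The constructs are overexpressed in a leukaemia line from a retroviral vector, and no group lacks PMA. The labels leave out whether each experiment started with its own transduction or culture. The p-values then reflect how far single libraries lie apart, and that spread may be technical.

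The libraries held 12410668 to 15099788 reads assigned to genes. In 16 libraries 21067 to 21557 genes had a read, against 23179 in IRES unstimulated library 3 and 25322 in DNMAML library 3 with IL-4, so results are also given without these libraries where they change. NOTCH1 reads, which include any from the NIC1 insert, ran at 366 to 452 CPM (counts scaled to the library total) in NIC1 libraries with IL-4, against 155 to 237 CPM with DNMAML and 199 to 274 CPM with IRES. MAML1 ran at 102 to 125 CPM in DNMAML libraries with IL-4, against 78.6 to 89.0 CPM with IRES. Monocyte and macrophage markers summed to 1220 to 1490 CPM over all libraries, led by ITGAX, ITGAM, SPI1 and CSF1R. Others of that list were low: MRC1 had 5 reads in all 18 libraries, MPEG1 59 and CD68 216, and CD14 ran at 1.59 to 9.25 CPM. Fibroblast and epithelium markers summed to 103 to 207 CPM over all libraries, led by COL1A1 (74.1 to 149 CPM). Of the markers of mature neutrophils, PGLYRP1 had no read, CEACAM8 and CD177 had 1 read each, CXCR1 had 3 and FCGR3B had 11. The list of 10 summed to at most 56.3 CPM, nearly all from CSF3R (15.4 to 48.7 CPM) and CXCR2 (2.56 to 7.48 CPM), which monocytes can also express, and its highest sums were 27.3 CPM with IL-4 and 26.6 CPM unstimulated with NIC1, 54.6 and 56.3 CPM with DNMAML and 45.7 and 49.4 CPM with IRES. Genes of the T cell list summed higher with NIC1, at 114 to 137 CPM in NIC1 libraries with IL-4 and 126 to 159 CPM unstimulated, against 76.5 to 94.9 and 87.7 to 97.0 CPM with DNMAML and 78.3 to 96.8 and 88.2 to 106 CPM with IRES. Most of that sum was TRAC (73.7 to 113 CPM over all libraries), while CD3D varied more, from 0.884 to 41.6 CPM. CD3E, CD2 and CD5 had 11, 6 and 10 reads in total. The part of these transcripts in the NIC1 results was not tested. In bulk RNA, fewer cells of a type and less RNA per cell cannot be told apart.

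Azurophil granules are the first granules formed in the neutrophil lineage, and their proteins are made mainly at the promyelocyte stage, when the genes for serine proteases and myeloperoxidase are transcribed strongly and then shut off. The regulators PU.1, C/EBP factors, MYB and GFI1 act on many of these genes, and monocyte precursors and leukaemia lines often keep part of the programme. CD34, FLT3 and SPINK2 mark earlier haematopoietic stem and progenitor cells.

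The genes AZU1, PRTN3, ELANE and CFD lie next to each other on chromosome 19 in GRCh38, all on the plus strand, at positions 825097 to 832018 (AZU1), 840960 to 848175 (PRTN3), 851014 to 856247 (ELANE) and 859643 to 863630 (CFD). The others are spread over the genome: CTSG (ENSG00000100448) on chromosome 14, MPO (ENSG00000005381) on 17, LYZ (ENSG00000090382) on 12, SPINK2 (ENSG00000128040) on 4, CD34 (ENSG00000174059) on 1 and FLT3 (ENSG00000122025) on 13. The promoters of PRTN3, AZU1, SPINK2 and FLT3 are shown because the first 3 were members higher with NIC1 than with DNMAML and FLT3 was among those lower. Each sequence is the stretch from 250 to 51 bases before a RefSeq start (GRCh38.p14), written 5′ to 3′ in the direction of the gene, with capitals for the core motif of RBPJ, the DNA-binding partner of Notch (TGGGAA or its reverse complement TTCCCA), or of PU.1 (GAGGAA or TTCCTC).

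PRTN3 (chr19:840749-840948, plus strand): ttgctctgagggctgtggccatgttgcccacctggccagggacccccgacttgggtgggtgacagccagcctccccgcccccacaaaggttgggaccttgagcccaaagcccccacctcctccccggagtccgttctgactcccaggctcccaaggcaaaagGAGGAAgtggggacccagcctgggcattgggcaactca

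AZU1 (chr19:827587-827786, plus strand): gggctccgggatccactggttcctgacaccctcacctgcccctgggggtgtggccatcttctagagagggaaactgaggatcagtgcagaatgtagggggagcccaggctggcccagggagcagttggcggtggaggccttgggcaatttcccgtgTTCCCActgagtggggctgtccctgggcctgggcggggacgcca

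SPINK2, second start (chr4:56821752-56821951, minus strand): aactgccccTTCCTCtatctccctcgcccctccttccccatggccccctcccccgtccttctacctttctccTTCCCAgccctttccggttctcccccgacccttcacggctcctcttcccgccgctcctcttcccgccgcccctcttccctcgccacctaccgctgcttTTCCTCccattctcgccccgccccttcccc

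FLT3 (chr13:28100627-28100826, minus strand): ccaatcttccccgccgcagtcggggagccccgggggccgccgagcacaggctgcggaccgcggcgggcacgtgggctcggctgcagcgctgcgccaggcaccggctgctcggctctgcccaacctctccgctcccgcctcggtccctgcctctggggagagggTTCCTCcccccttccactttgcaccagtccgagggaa

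The PRTN3 window held a PU.1 core 88 bases before the start and no RBPJ core. The AZU1 window held an RBPJ core on the opposite strand 94 bases before the start. The SPINK2 window at the second start held an RBPJ core at 178 bases and PU.1 cores at 241 and 80 bases. That at the first start, not printed, held a PU.1 core at 73 bases and C/EBP motifs at 219 and 91 bases. The 2 windows overlap, and the PU.1 core at 73 bases is the same site as that at 241 bases before the second start. The window at the first start held no RBPJ core, because the RBPJ core of the second window lies closer to the first start than that window reaches. The AZU1 window held no PU.1 core, and the FLT3 window held a PU.1 core at 87 bases and no RBPJ core. Searched on both strands, the RBPJ core was present in 17.5% and the PU.1 core in 19.1% of 35116 windows of the same length. A C/EBP motif (TTNNGNAA), present in 29.3% of windows, lay 62 bases before the PRTN3 start and 111 bases before the AZU1 start, and a MYB motif (TAACNG), present in 14.5%, was in none of the 4. Within a window no match overlapped one of another motif, and RefSeq entries were found for 7 of the 10 genes, not for ELANE, MPO and LYZ. The AZU1 start in RefSeq lies inside the longer AZU1 gene of the annotation used for the counts. These matches describe letters in the windows only.

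Levels of different genes were compared as CPM per kb of exon. The chromosome 19 genes were the highest, with medians over 18 libraries of 43.6 CPM per kb for ELANE, 39.9 for AZU1, 34.7 for CFD and 34.1 for PRTN3. LYZ, the bacterial wall-cleaving lysozyme of granules and macrophages, had a median of 15.3 CPM per kb, and FLT3, the receptor tyrosine kinase of early progenitors, 2.46. SPINK2, a serine protease inhibitor found in stem cells, had 1.06 CPM per kb. MPO, which makes hypochlorous acid, and CTSG, the protease cathepsin G, were at 0.131 and 0.0951 CPM per kb, with 123 and 37 reads in all libraries together. CD34, the sialomucin that defines the stem and progenitor compartment, had 2 reads in all and was at 0 in 16 libraries. The 3 reads that a count of 0 allows amount to 0.220 CPM in NIC1 library 2 with IL-4, a limit of counting error only. The granule protease genes were thus not read at a common level: ELANE, AZU1 and PRTN3 stood at 34.1 to 43.6 CPM per kb where CTSG stood at 0.0951, and the spread of each high gene over libraries (for PRTN3 26.4 to 71.9 CPM, for ELANE 35.0 to 64.0 CPM) was far smaller. CTSG, MPO and CD34 did not pass the filter on low counts, so 7 of the 10 genes were tested; SPINK2, at 5 to 28 reads a library, passed it mainly through the NIC1 libraries.

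**Figure D1:**
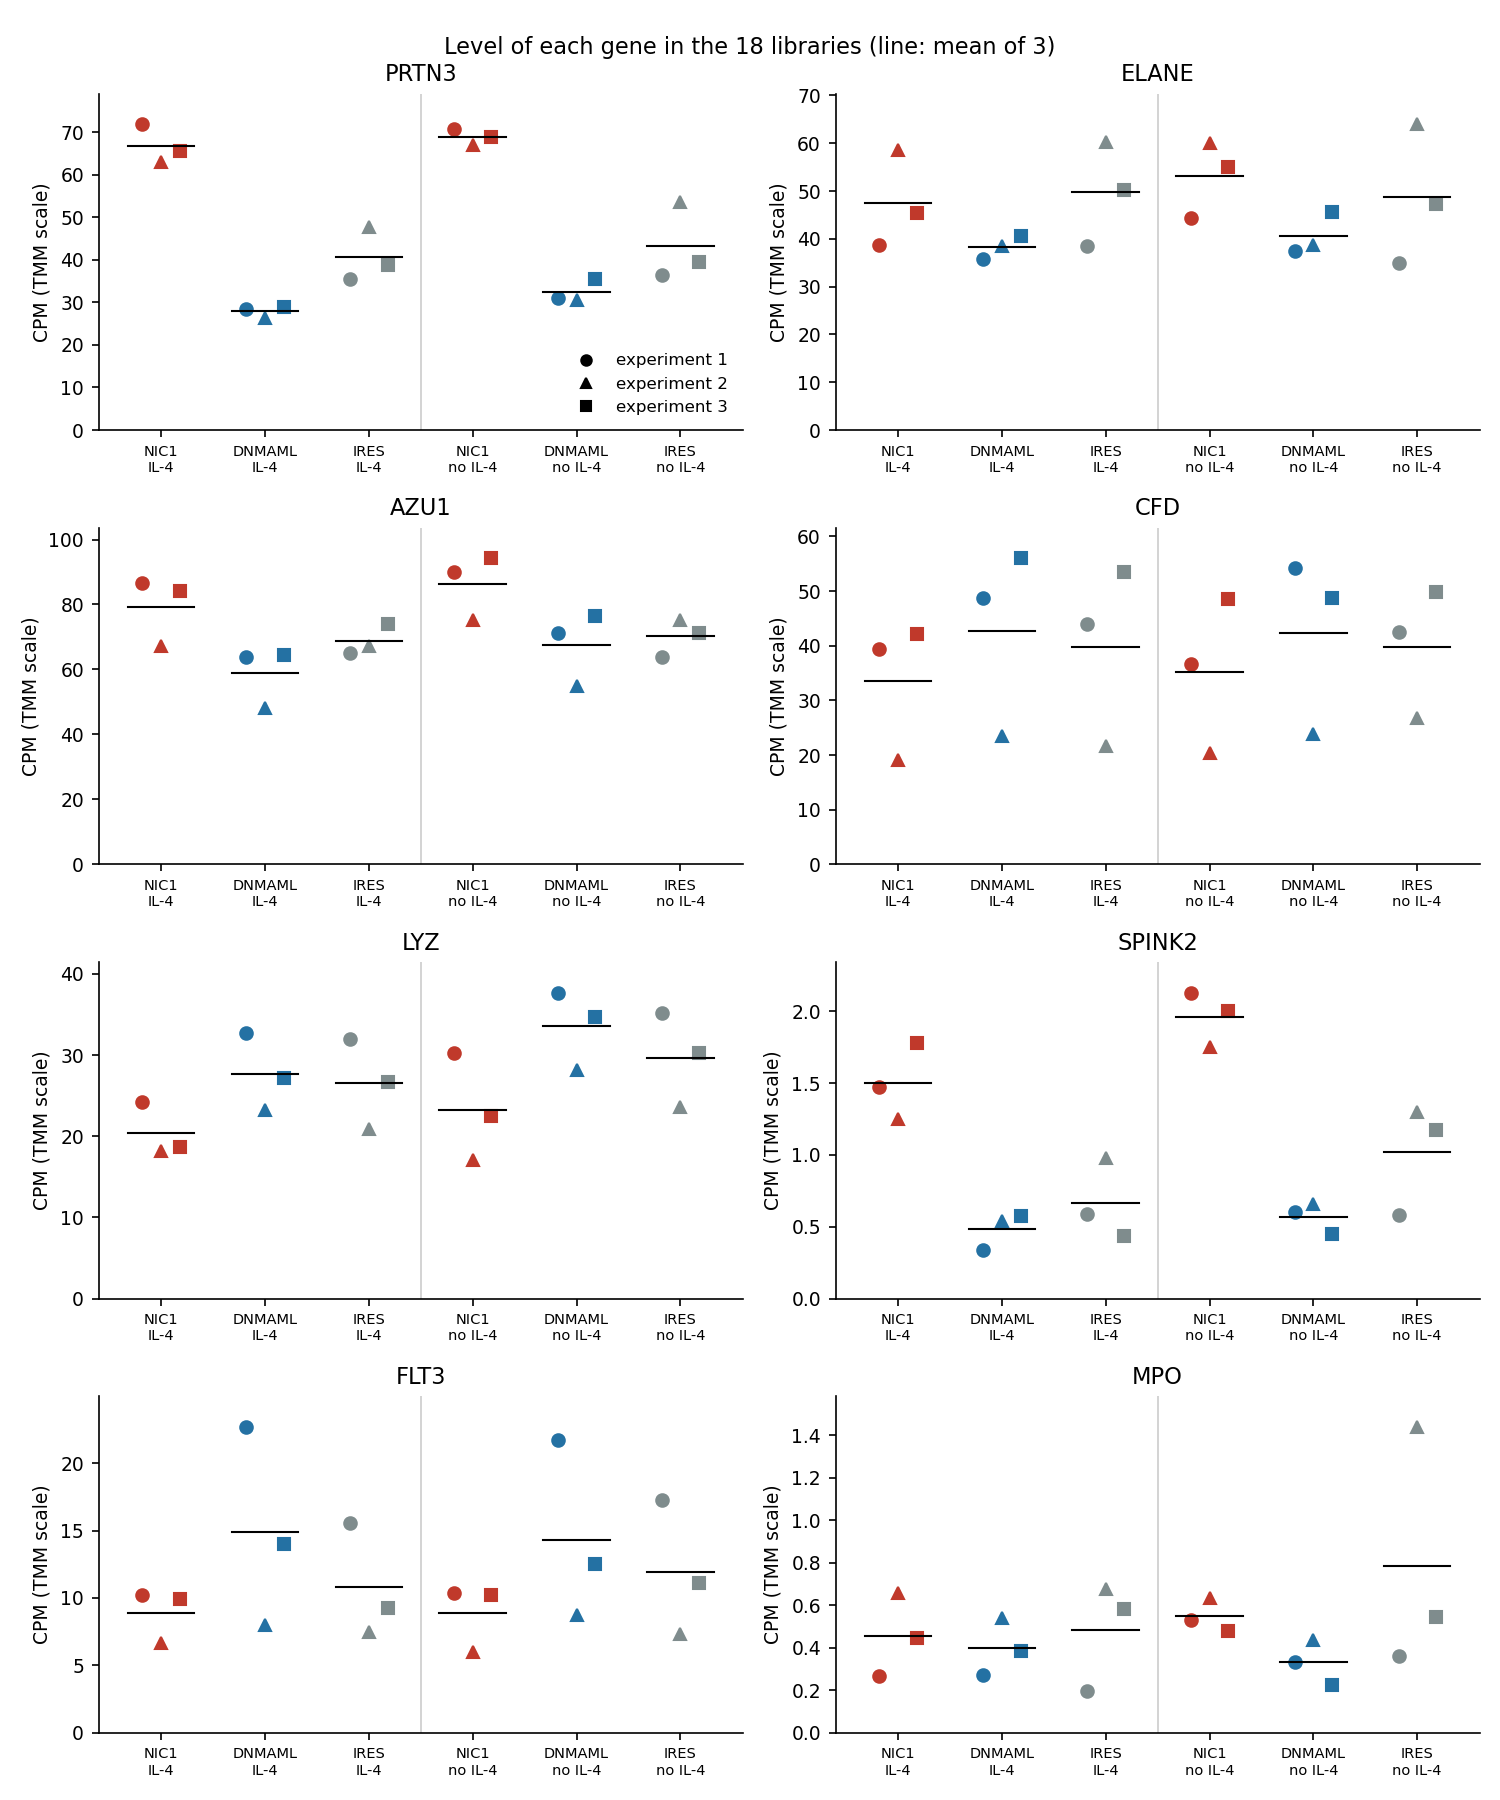
CPM of 8 of the 10 genes in every library (points, shaped by experiment; line, mean of 3), by construct, with IL-4 on the left and unstimulated on the right of each panel. PRTN3 sits at 62.9 to 71.9 CPM in NIC1 libraries with IL-4, above every DNMAML and IRES library, and CFD is lowest in experiment 2 of every group.

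PRTN3 encodes proteinase 3, a neutral serine protease of azurophil granules. It was read at 71.9, 62.9 and 65.6 CPM in NIC1 libraries with IL-4, at 28.4, 26.4 and 28.8 CPM with DNMAML and at 35.5, 47.6 and 38.8 CPM with IRES. Without IL-4 it was at 70.8, 67.1 and 68.9 CPM with NIC1, at 31.1, 30.6 and 35.4 CPM with DNMAML and at 36.4, 53.6 and 39.4 CPM with IRES. In each state the lowest NIC1 library lay above the highest IRES library, and the highest DNMAML library below the lowest IRES library. The log2 difference of NIC1 over IRES was 0.72 ± 0.128 with IL-4 and 0.68 ± 0.128 unstimulated (SE, 3 libraries each), that of DNMAML over IRES was -0.54 ± 0.130 and -0.41 ± 0.129, and that of NIC1 over DNMAML was 1.26 ± 0.130 and 1.09 ± 0.129. Within experiments, NIC1 over DNMAML ranged from 0.96 to 1.33 on the log2 scale over both states, whereas NIC1 over IRES was 0.40 and 0.32 in experiment 2, against 0.76 to 1.02 in experiments 1 and 3.

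The log2 difference of PRTN3 was 0.63 to 0.84 for NIC1 over IRES with IL-4, and 0.57 to 0.86 unstimulated, when each library was left out in turn. Of the 6 tested members other than PRTN3, 0 passed an adjusted p of 0.05 for NIC1 over IRES in either state (edgeR quasi-likelihood test over all genes), where 0.2% of all tested genes did with IL-4 and 0.233% unstimulated. For DNMAML over IRES no gene of the 15037 tested passed (0% in each state; 357 and 371 had an unadjusted p under 0.05), and DESeq2 called 1 with IL-4 and 2 unstimulated, none of them a member. For NIC1 over DNMAML, SPINK2 alone of the 6 passed in each state, beside 1.44% of all genes with IL-4 and 1.65% unstimulated. The experiment numbers pair the libraries, and with the number as a block the shares of all genes called were 5.44% and 5.37% for NIC1 over IRES, 0.0931% and 0.146% for DNMAML over IRES, and 12.6% and 13.8% for NIC1 over DNMAML, with IL-4 and unstimulated in each pair. With that block 2 of the 6 passed for NIC1 over IRES with IL-4 (SPINK2 and LYZ) and 1 unstimulated (LYZ), 0 in each state for DNMAML over IRES, and 5 in each state for NIC1 over DNMAML. The list was drawn up with differences between these constructs known, so nothing is read from these counts. When the 2 libraries with high numbers of detected genes were left out, none of the 6 passed for NIC1 over IRES without the block, and LYZ with IL-4 alone did with it.

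**Figure D2:**
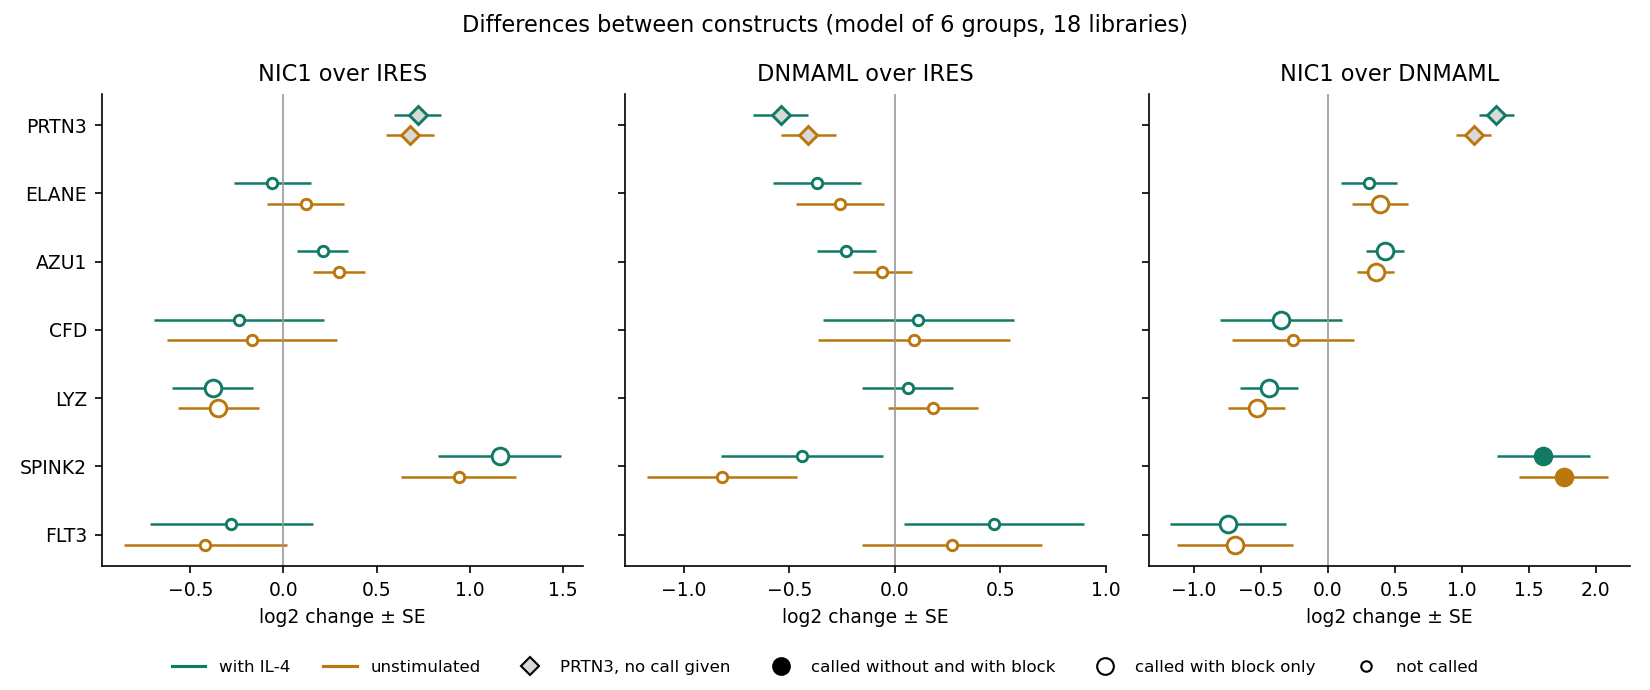
Log2 difference ± SE of the 7 tested genes for NIC1 over IRES, DNMAML over IRES and NIC1 over DNMAML, with IL-4 (green) and unstimulated (orange); large symbols pass an adjusted p of 0.05 with the experiment block, filled ones also without it, and PRTN3 diamonds carry no call. SPINK2 is furthest to the right for NIC1 over DNMAML, at 1.61 and 1.76, and FLT3 furthest to the left, at -0.74 and -0.69. SPINK2 passed the filter on low counts mainly through the NIC1 libraries, so nothing is read from its filled symbols.

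ELANE encodes neutrophil elastase and starts downstream of PRTN3. It was read at 38.7, 58.5 and 45.4 CPM in NIC1 libraries with IL-4, at 35.8, 38.5 and 40.6 CPM with DNMAML and at 38.6, 60.2 and 50.3 CPM with IRES. Without IL-4 it was at 44.3, 60.1 and 55.1 CPM with NIC1, at 37.5, 38.8 and 45.7 CPM with DNMAML and at 35.0, 64.0 and 47.3 CPM with IRES. The NIC1 and IRES libraries overlapped fully, with log2 differences of -0.06 ± 0.207 with IL-4 (95% interval -0.47 to 0.34; adjusted p = 1, edgeR) and 0.12 ± 0.207 unstimulated (-0.28 to 0.53; adjusted p = 0.972, edgeR). NIC1 over DNMAML was 0.31 ± 0.208 and 0.39 ± 0.208 (edgeR adjusted p = 0.636 and 0.462), and the unstimulated difference passed with the block (adjusted p = 0.0488) but not when the 2 libraries were also left out (0.0774).

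AZU1 encodes azurocidin, an antimicrobial relative of the proteases that has lost its catalytic activity. It was read at 86.6, 67.1 and 84.1 CPM in NIC1 libraries with IL-4, at 63.9, 48.1 and 64.3 CPM with DNMAML and at 64.9, 67.3 and 73.9 CPM with IRES. Without IL-4 it was at 89.9, 75.1 and 94.2 CPM with NIC1, at 71.1, 55.0 and 76.4 CPM with DNMAML and at 63.9, 75.3 and 71.3 CPM with IRES. With IL-4 every NIC1 library lay above every DNMAML library, and without IL-4 the 2 groups overlapped. The log2 difference of NIC1 over DNMAML was 0.43 ± 0.140 with IL-4 (edgeR adjusted p = 0.185, with the block 0.00597) and 0.36 ± 0.139 unstimulated (0.263, with the block 0.019). NIC1 over IRES was 0.21 ± 0.139 and 0.30 ± 0.139 and did not pass with the block either (edgeR adjusted p = 0.317 and 0.0985).

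The ratio of PRTN3 reads to those of a neighbour in the same library is free of library size. PRTN3 had 1.46 ± 0.392 reads per ELANE read in NIC1 libraries with IL-4 and 1.32 ± 0.249 unstimulated, against 0.730 ± 0.0560 and 0.798 ± 0.0284 with DNMAML and 0.827 ± 0.0814 and 0.903 ± 0.118 with IRES (SD, n = 3 each). Per AZU1 read it had 0.849 ± 0.0797 and 0.804 ± 0.0822 reads with NIC1, against 0.481 ± 0.0590 and 0.486 ± 0.0629 with DNMAML and 0.592 ± 0.0996 and 0.611 ± 0.0875 with IRES. In both ratios the lowest NIC1 library lay above the highest IRES library of the same state. Per CFD read, NIC1 and IRES libraries overlapped in each state: PRTN3 had 2.22 ± 0.938 reads with NIC1 and IL-4, 0.741 ± 0.335 with DNMAML and 1.24 ± 0.830 with IRES, and 2.21 ± 0.961, 0.862 ± 0.374 and 1.22 ± 0.680 unstimulated. The ratio rests on PRTN3, so it describes unequal levels within the cluster and is not a further test.

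**Figure D3:**
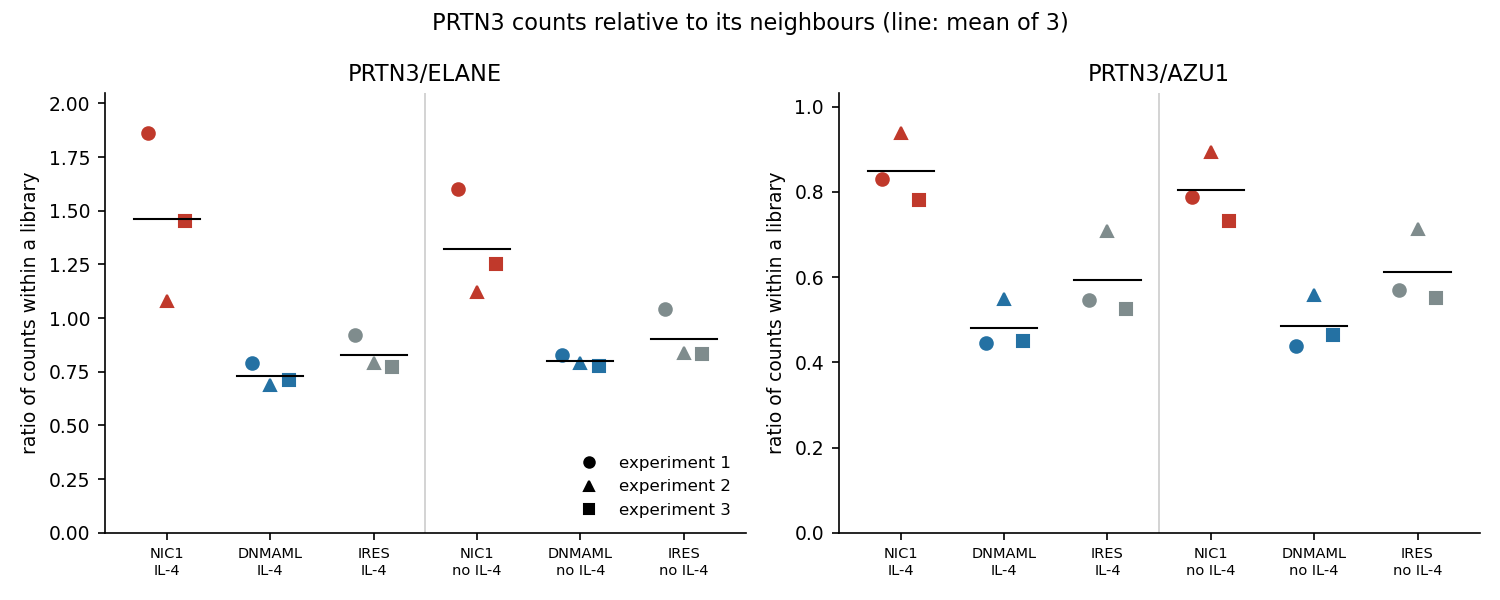
Ratio of PRTN3 reads to ELANE reads (left) and to AZU1 reads (right) in each library, by construct, with IL-4 and unstimulated; points are shaped by experiment and lines are means of 3. The NIC1 libraries reach from 1.08 to 1.86 for ELANE with IL-4, against 0.686 to 0.793 with DNMAML and 0.770 to 0.920 with IRES.

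CFD, at the downstream end of the cluster, encodes complement factor D (adipsin), which cleaves factor B in the alternative pathway. It was read at 39.4, 19.1 and 42.2 CPM in NIC1 libraries with IL-4, at 48.8, 23.5 and 56.0 CPM with DNMAML and at 44.0, 21.6 and 53.5 CPM with IRES. Without IL-4 it was at 36.6, 20.4 and 48.5 CPM with NIC1, at 54.2, 23.8 and 48.8 CPM with DNMAML and at 42.5, 26.8 and 49.8 CPM with IRES. Experiment 2 was the lowest library of every group, and the constructs overlapped. NIC1 over DNMAML was -0.35 ± 0.454 with IL-4 (edgeR adjusted p = 0.865) and -0.26 ± 0.455 unstimulated (0.875); with the block the first passed (-0.34 ± 0.0917, adjusted p = 0.0151) and the second did not (0.0555). Neither passed with the block once the 2 libraries were left out (edgeR adjusted p = 0.0923 and 0.0768).

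In all 10 tested genes, these 4 and 6 others, overlap a window reaching 100 kb beyond the cluster, in which 18 genes are annotated. None of the 6 others (PALM, PTBP1, PLPPR3, MED16, R3HDM4 and ARID3A) passed in any comparison without the block. PLPPR3, a lipid phosphatase-related gene on the minus strand between PTBP1 and AZU1, was lower with NIC1: its log2 difference was -0.63 ± 0.230 and -0.75 ± 0.231 over IRES and -0.81 ± 0.230 and -0.85 ± 0.230 over DNMAML, with IL-4 and unstimulated. It passed with the block in all 4 (edgeR adjusted p = 0.00377, 0.000894, 9.91e-05 and 6.12e-05). The other 5 did not pass with the block between constructs.

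**Figure D4:**
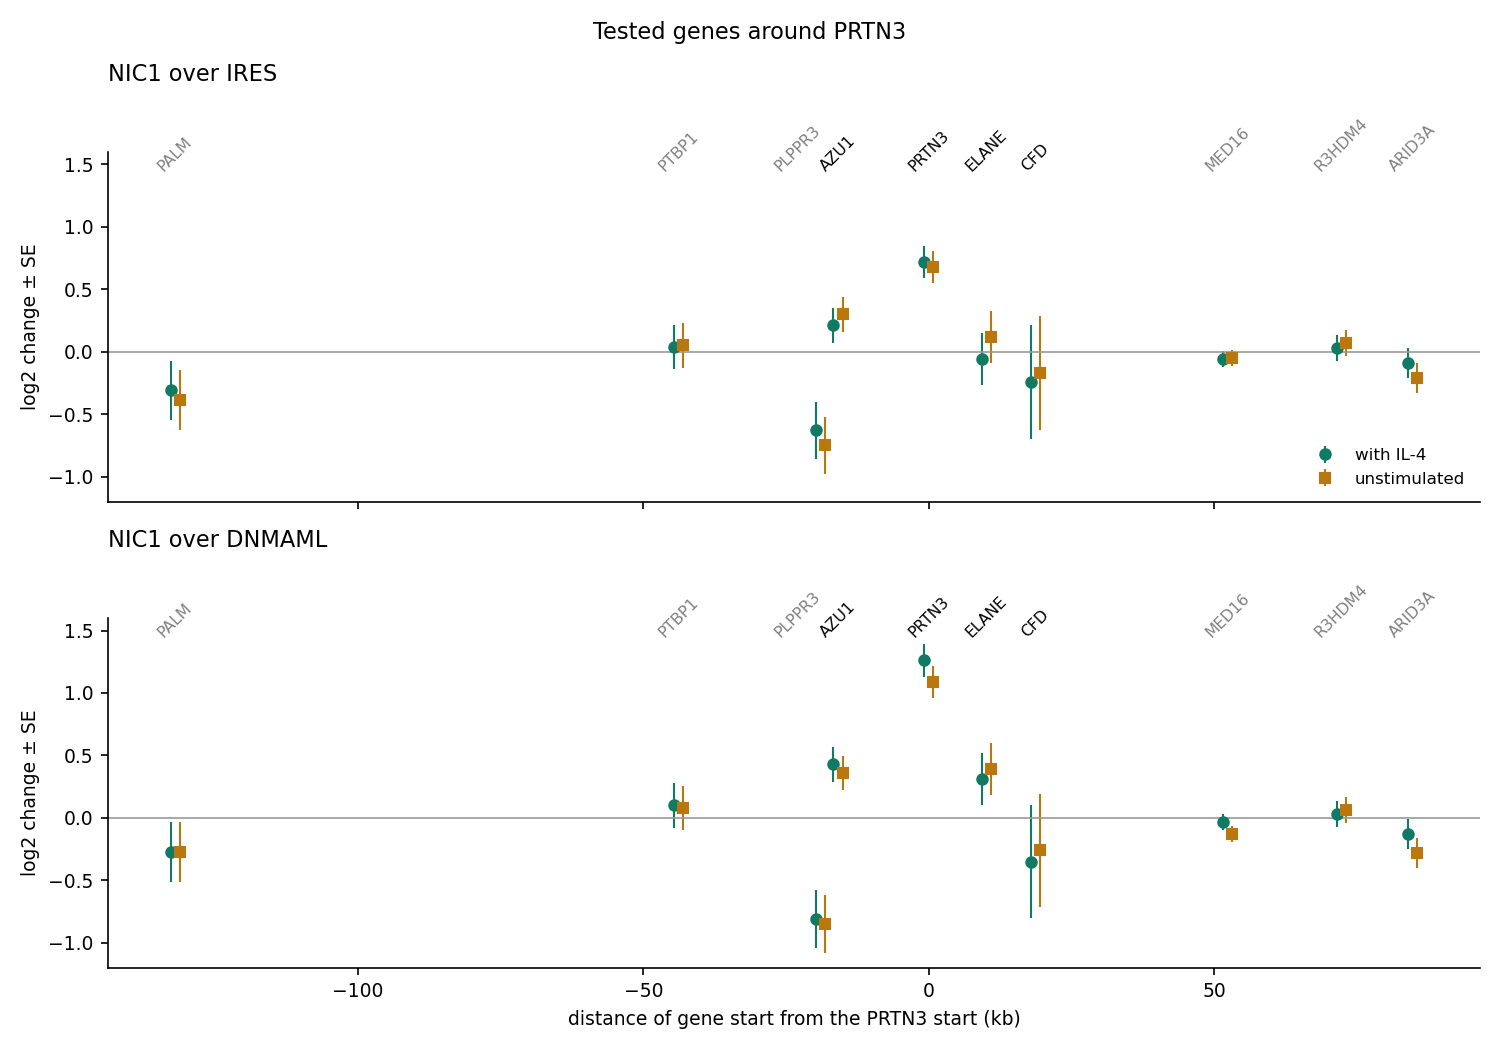
Log2 difference ± SE of the 10 tested genes around PRTN3 against the distance of their start from the PRTN3 start (kb), for NIC1 over IRES (top) and NIC1 over DNMAML (bottom), with IL-4 (circles) and unstimulated (squares). PRTN3 is at 0.72 and 0.68 in the upper panel, and PLPPR3, left of AZU1, is at -0.63 and -0.75.

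LYZ reads were lower with NIC1 than with the other constructs once libraries were compared within an experiment. They ran at 24.2, 18.2 and 18.7 CPM with NIC1 and IL-4, at 32.7, 23.2 and 27.2 CPM with DNMAML and at 32.0, 20.9 and 26.7 CPM with IRES. Without IL-4 they ran at 30.2, 17.1 and 22.5 CPM with NIC1, at 37.7, 28.2 and 34.7 CPM with DNMAML and at 35.2, 23.6 and 30.3 CPM with IRES. The groups overlapped, but within every experiment NIC1 was below both other constructs in each state, by 0.20 to 0.51 under IRES and 0.32 to 0.72 under DNMAML on the log2 scale. NIC1 over IRES was -0.38 ± 0.217 and -0.35 ± 0.216 with IL-4 and unstimulated (edgeR adjusted p = 0.958 and 0.821, with the block 0.0077 and 0.0105). NIC1 over DNMAML was -0.44 ± 0.217 and -0.53 ± 0.216 (edgeR adjusted p = 0.449 and 0.294, with the block 0.000865 and 8.88e-05). Without the 2 libraries, the blocked adjusted p for NIC1 over IRES unstimulated was 0.064, and the other 3 passed. An annotated antisense gene inside LYZ had 11 reads in all libraries, and the labels name no strand setting for the counting.

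SPINK2 reads were few in all libraries. With IL-4 there were 22, 17 and 24 reads with NIC1, 5, 7 and 9 with DNMAML and 9, 13 and 6 with IRES, or 1.50 ± 0.270, 0.487 ± 0.128 and 0.668 ± 0.278 CPM in that order (SD, n = 3 each). Without IL-4 there were 28, 22 and 25 reads with NIC1, 9, 9 and 6 with DNMAML and 8, 18 and 15 with IRES, or 1.96 ± 0.192, 0.569 ± 0.107 and 1.01 ± 0.382 CPM. In each state every NIC1 library lay above every library of the other constructs. SPINK2 passed the filter on low counts mainly through these NIC1 libraries, so nothing is read from its calls for NIC1 over the other constructs. NIC1 over DNMAML was 1.61 ± 0.344 with IL-4 and 1.76 ± 0.331 unstimulated on the log2 scale (edgeR adjusted p = 0.0276 and 0.013). With IL-4 the call was lost when any of the 6 libraries was left out (adjusted p up to 0.154, edgeR), and without IL-4 it was lost without NIC1 library 1, DNMAML library 1 or DNMAML library 3 (up to 0.0774). NIC1 over IRES was 1.16 ± 0.330 and 0.94 ± 0.307 (edgeR adjusted p = 0.28 and 0.383); with the block the first passed (0.0428) and the second did not (0.0655), and without the 2 libraries the first did not (0.0571). DNMAML over IRES was -0.44 ± 0.382 and -0.82 ± 0.354 and did not pass (edgeR adjusted p = 1 in each state).

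FLT3 was lower in the NIC1 than in the DNMAML libraries of each experiment. It was read at 10.2, 6.67 and 9.89 CPM with NIC1 and IL-4, at 22.7, 7.98 and 14.0 CPM with DNMAML and at 15.6, 7.51 and 9.25 CPM with IRES. Without IL-4 it was at 10.4, 5.97 and 10.2 CPM with NIC1, at 21.7, 8.77 and 12.5 CPM with DNMAML and at 17.3, 7.35 and 11.1 CPM with IRES. The DNMAML values spanned the widest range, from experiment 2 at the low end to experiment 1 at the high end. NIC1 over DNMAML was -0.74 ± 0.432 and -0.69 ± 0.435 on the log2 scale (edgeR adjusted p = 0.566 and 0.545, with the block 0.00306 and 0.00535), and with the block it also passed without the 2 libraries (0.0217 and 0.0127). NIC1 over IRES was -0.28 ± 0.436 and -0.42 ± 0.438 and did not pass with the block (edgeR adjusted p = 0.485 and 0.154).

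CTSG had 4, 3 and 3 reads in NIC1 libraries with IL-4, 0, 1 and 2 with DNMAML and 1, 5 and 0 with IRES. Without IL-4 it had 2, 4 and 2 reads with NIC1, 2, 1 and 1 with DNMAML and 1, 1 and 4 with IRES. MPO had 4, 9 and 6 reads with NIC1 and IL-4, 4, 7 and 6 with DNMAML and 3, 9 and 8 with IRES, with all 3 groups overlapping. Without IL-4 it had 7, 8 and 6 reads with NIC1, 5, 6 and 3 with DNMAML and 5, 20 and 7 with IRES. The 2 CD34 reads came from DNMAML library 3 with IL-4 and IRES library 3 unstimulated, the 2 libraries with the most genes detected. At these depths no difference of the 3 genes between groups was detectable.

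CFD and FLT3 lay further apart between experiments than between constructs. In a model chosen after the data were seen, experiment 2 minus the mean of experiments 1 and 3 was -1.06 ± 0.0598 for CFD, -0.86 ± 0.0978 for FLT3 and -0.42 ± 0.0509 for LYZ (log2, SE), and 0.31 ± 0.0724 for ELANE. It was 0.08 ± 0.0743 for PRTN3 and 0.13 ± 0.206 for SPINK2. By the same model 51.2% of all tested genes differed between the experiments, so these are given as sizes only. CFD ran at 19.1 to 26.8 CPM in the 6 libraries of experiment 2, against 36.6 to 56.0 CPM in the 12 others, with no overlap.

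No member passed for IL-4 over unstimulated in any construct without a block. PRTN3 was -0.04 ± 0.126 in NIC1, -0.21 ± 0.130 in DNMAML and -0.09 ± 0.128 in IRES cells on the log2 scale (edgeR adjusted p = 0.999, 0.683 and 1), and its NIC1 and IRES libraries overlapped between states, while all DNMAML libraries with IL-4 lay below those without it. LYZ was -0.19 ± 0.218, -0.28 ± 0.213 and -0.16 ± 0.215 for NIC1, DNMAML and IRES. SPINK2, with few reads, was -0.38 ± 0.292, -0.23 ± 0.391 and -0.60 ± 0.346, with 95% intervals from -0.96 to 0.19, -0.99 to 0.54 and -1.28 to 0.08. In each construct 0 of the 7 tested genes passed, beside 3.05% of all genes in NIC1, 3.28% in DNMAML and 2.93% in IRES. With the experiment block these shares were 8.8%, 9.95% and 9.04%, and LYZ passed in DNMAML cells (-0.28 ± 0.0786; edgeR adjusted p = 0.0238), but not when the 2 libraries, DNMAML library 3 with IL-4 among them, were left out (0.104). When each library with IL-4 was paired with the unstimulated one of its construct and number, the shares were 14.3%, 17% and 15%, and 3 members passed in DNMAML cells and 0 in the others. These were LYZ (-0.28 ± 0.0717, adjusted p = 0.00596), AZU1 (-0.20 ± 0.0537, adjusted p = 0.00858) and PRTN3 (-0.21 ± 0.0652, adjusted p = 0.0211) by edgeR, each lower with IL-4 in all 3 experiments. PRTN3 and LYZ in IRES cells and AZU1 in NIC1 cells were also lower in all 3 experiments. The same held for ELANE in NIC1 and DNMAML cells and SPINK2 in NIC1 cells. Without the 2 libraries none of the 3 passed with that pairing (edgeR adjusted p = 0.0846 for LYZ, 0.0895 for AZU1 and 0.189 for PRTN3). No gene passed in the 3 differences of IL-4 response between constructs (0% of all genes by edgeR, with and without the experiment block), and DESeq2 called 0. An unadjusted p under 0.05 was found for 121 genes in NIC1 minus IRES, 98 in DNMAML minus IRES and 214 in NIC1 minus DNMAML. With the closer pairing 13 genes passed in NIC1 minus DNMAML, none of them a member, and 1 without the 2 libraries, so the DNMAML calls are not shown to differ from the other constructs. The 95% interval of the PRTN3 difference was -0.31 to 0.40 for NIC1 minus IRES and -0.48 to 0.23 for DNMAML minus IRES.

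**Figure D5:**
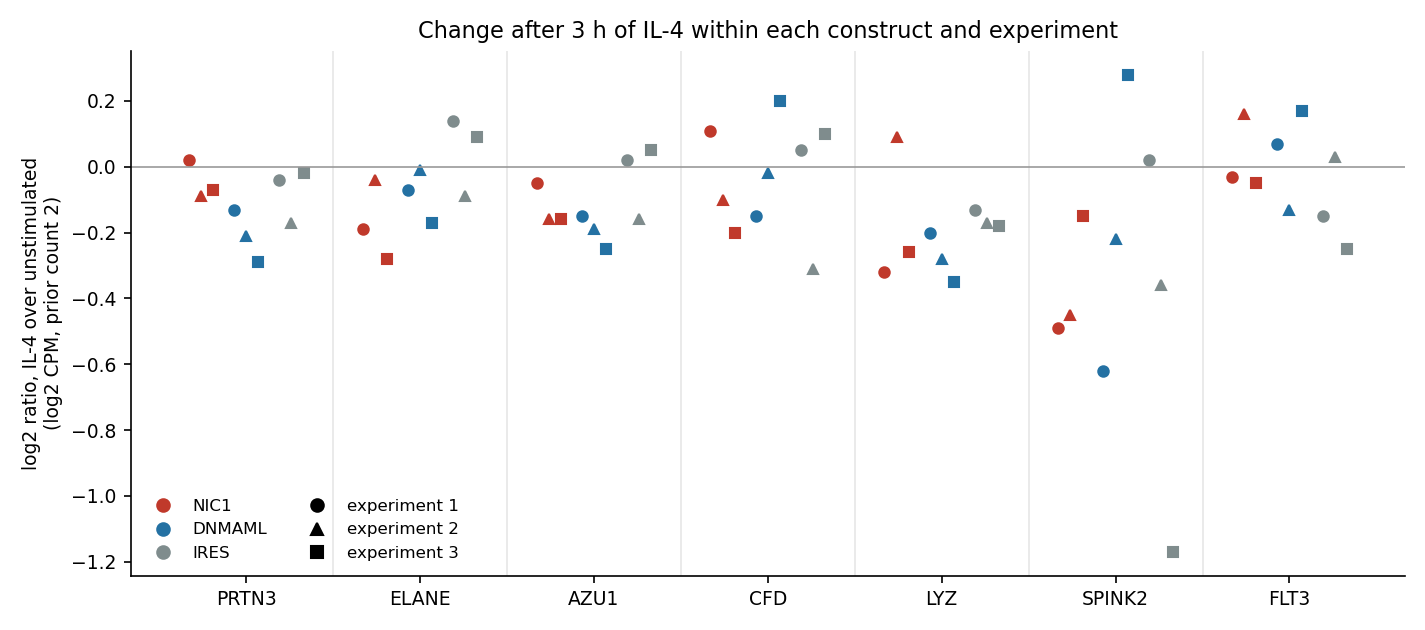
Log2 ratio of IL-4 over unstimulated libraries of the same construct and experiment for the 7 tested genes (colour, construct; shape, experiment). The PRTN3, AZU1 and LYZ ratios of DNMAML cells lie below 0 in all 3 experiments, from -0.35 to -0.13. So do PRTN3 (-0.17 to -0.02) and LYZ (-0.18 to -0.13) in IRES cells and AZU1 (-0.16 to -0.05) in NIC1 cells. ELANE also lies below 0 in all 3 in NIC1 (-0.28 to -0.04) and DNMAML cells (-0.17 to -0.01), as does SPINK2 in NIC1 cells (-0.49 to -0.15). SPINK2, with few reads, spreads from -1.17 to 0.28.

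Genes that act with the members were taken from lists chosen for their roles. With the block, 5.44% and 5.37% of all genes passed for NIC1 over IRES, with IL-4 and unstimulated. For NIC1 over DNMAML 12.6% and 13.8% passed, and the calls of these lists with the block stand beside these shares. Among 11 tested azurophil granule genes outside the 10, CTSC, the dipeptidyl peptidase that activates the granule serine proteases, rose with IL-4 in every construct: to 461 ± 36.2 CPM in NIC1, against 274 ± 18.6 CPM unstimulated (log2 0.75 ± 0.122), by 0.71 ± 0.122 in DNMAML and by 0.78 ± 0.122 in IRES (edgeR adjusted p = 0.00148, 0.00226 and 0.00107). No other gene of this list passed in any comparison without the block. With it, CST7, a cystatin that inhibits cathepsins, was higher in NIC1 in all 4 comparisons with the other constructs, as were BPI, a bactericidal granule protein, CD63, a granule membrane tetraspanin, and CTSC. SRGN, a granule proteoglycan, was higher than with IRES unstimulated (0.21 ± 0.0767, blocked edgeR adjusted p = 0.0465), and CLEC11A, a secreted growth factor, was lower than with IRES with IL-4 (-0.22 ± 0.0688, blocked 0.0476). The list median for NIC1 over DNMAML was 0.39 on the log2 scale in each state, beside -0.003 and -0.001 over all genes. Of the lists below, later granule genes had medians of -0.36 and -0.43 and transcription regulators 0.02 and -0.02. Progenitor markers had -0.08 and -0.07, and growth factor receptors and FLT3 partners -0.13 and -0.21.

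Of 8 tested inhibitors of the granule proteases, SLPI, a secreted inhibitor of elastase and cathepsin G, was higher in NIC1 than in DNMAML cells. It averaged 3.58 ± 0.954 CPM with NIC1 and IL-4, against 1.06 ± 0.319 CPM with DNMAML (log2 1.74 ± 0.283, edgeR adjusted p = 0.0048), and 4.56 ± 1.00 against 0.994 ± 0.293 CPM unstimulated (2.18 ± 0.284, adjusted p = 0.000939). Over IRES it was 1.15 ± 0.270 and 1.33 ± 0.266 (edgeR adjusted p = 0.126 and 0.0549), past the threshold with the block only (0.00306 and 0.000606). SERPINB9, a granzyme B inhibitor, and A2M, a broad protease trap, also passed with the block only, for NIC1 over DNMAML in both states, while CST3, cystatin C, was lower. SERPINA1 passed with the block over IRES only, at 0.46 ± 0.114 with IL-4 and 0.44 ± 0.114 unstimulated (blocked edgeR adjusted p = 0.000877 and 0.00124). Over IRES, SERPINB9 also passed with the block in both states, and A2M (higher) and CST3 (lower) did with IL-4 only. The medians of this list were 0.11 and 0.14 for NIC1 over DNMAML. Of 13 genes of later granules 3 were tested, and none passed without the block. With it MMP9 was higher and CHI3L1 and HP lower in NIC1 than in DNMAML cells. HP had few reads, at 0.285 ± 0.264 CPM with NIC1 and 1.39 ± 1.02 CPM with DNMAML (SD, with IL-4).

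Among 22 transcription regulators of granule genes, none passed between constructs without the block, and IL-4 moved several in all 3 constructs. CEBPA, which drives granulocyte and monocyte commitment, rose to 359 ± 46.2 CPM in NIC1 cells with IL-4, against 157 ± 20.6 CPM unstimulated (log2 1.19 ± 0.209, edgeR adjusted p = 0.00331), by 0.90 ± 0.208 in DNMAML and by 1.07 ± 0.209 in IRES (adjusted p = 0.0238 and 0.00767). KLF4, a monocyte differentiation factor, changed by -1.32 ± 0.202, -0.88 ± 0.201 and -1.04 ± 0.206 in NIC1, DNMAML and IRES cells, and TET2, a methylcytosine dioxygenase, by -0.42 ± 0.0911, -0.56 ± 0.0911 and -0.50 ± 0.0909 (all edgeR adjusted p under the threshold, the highest 0.0219). IRF8, which favours monocytes over granulocytes, rose in NIC1 (1.66 ± 0.406) and IRES cells (1.78 ± 0.409), and was 1.55 ± 0.406 in DNMAML cells (edgeR adjusted p = 0.0375, 0.0261 and 0.0556). MYB fell by 1.19 in NIC1 cells (edgeR adjusted p = 0.014) and had -0.90 ± 0.263 in DNMAML and -0.98 ± 0.262 in IRES cells (0.0907 and 0.059). GFI1, a repressor that limits ELANE and other granule genes, was higher in NIC1 than in DNMAML cells with the block only (0.75 ± 0.276 and 0.62 ± 0.272 without it; blocked edgeR adjusted p = 1.41e-05 and 6.68e-05). With the block 4 regulators were higher and 1 lower in NIC1 than in DNMAML cells with IL-4, beside 12.6% of all genes. Unstimulated 5 were higher and 4 lower, beside 13.8% of all genes. Besides GFI1, the higher ones were EGR1, EGR2 and CBFB in both states and MYB unstimulated. HOXA9 was lower in both states, and CEBPE (-0.56 ± 0.266), CUX1 (-0.18 ± 0.0572) and RUNX1 (-0.27 ± 0.140) unstimulated (blocked edgeR adjusted p = 0.00362, 0.0114 and 0.045). Over IRES, 2 were higher and 0 lower with IL-4 (GFI1 and EGR1), beside 5.44% of all genes. Unstimulated 4 were higher (GFI1, EGR1, EGR2 and MYB) and 1 lower (CEBPE), beside 5.37%.

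None of 16 tested progenitor markers outside the 10 and none of 8 tested growth factor receptors and FLT3 partners passed without the block in any comparison. With the block the receptors CSF3R, CSF2RA, CSF2RB and CSF1R were lower in NIC1 than in DNMAML cells in both states, with log2 differences of -0.88 ± 0.373, -0.50 ± 0.265, -0.51 ± 0.297 and -0.19 ± 0.265 with IL-4, and the progenitor markers SOX4, HOXA9 and MSI2 were lower too, STMN1 with IL-4 only. SMIM24, of the same marker list, was higher in NIC1 than in DNMAML cells (0.40 ± 0.393 with IL-4 and 0.61 ± 0.392 unstimulated; blocked edgeR adjusted p = 0.0421 and 0.00306). CSF2, the granulocyte and macrophage growth factor GM-CSF, was on the receptor list and was also higher with the block: it averaged 2.33 ± 0.981 CPM with NIC1 and IL-4, 0.370 ± 0.437 with DNMAML and 0.439 ± 0.400 with IRES (SD, n = 3 each), and 0.654 ± 0.280, 0.0244 ± 0.0422 and 0.0240 ± 0.0416 CPM unstimulated. It passed in all 4 comparisons of NIC1 with the other constructs and for IL-4 in all 3 constructs with the block (highest edgeR adjusted p = 0.0375) and in none without it. CSF2 passed the filter on low counts mainly through the NIC1 libraries with IL-4. The other groups held few CSF2 reads, so nothing is read from these calls. KIT, the stem cell factor receptor, was lower with IL-4 in DNMAML (-0.83 ± 0.335) and IRES cells (-1.16 ± 0.341) with the block only (edgeR adjusted p = 0.0276 and 0.00241).

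The profiles most like PRTN3 over the 18 libraries, by the root mean square difference of log2 CPM centred on each gene's mean among 12906 genes, were those of SLC12A8 (0.214), SLC30A3 (0.214) and CYRIA (0.222). SLC12A8 averaged 43.5 ± 2.97 CPM in NIC1 libraries with IL-4, against 20.0 ± 3.61 CPM with DNMAML and 24.7 ± 1.62 CPM with IRES. SPINK2 ranked 60 (0.321), AZU1 108 (0.351) and ELANE 368 (0.408), while LYZ, CFD and FLT3 ranked 11634, 12047 and 12375. Seen from SPINK2, the nearest profiles were CYRIA (0.283), PRTN3 (0.321) and VWF (0.322), and from AZU1 they were DRAP1 (0.152), SLC44A2 (0.152) and MAPKAPK2 (0.154). From AZU1, ELANE ranked only 5963 (0.289) and PRTN3 8561 (0.351). A gene with no change over the libraries would lie 0.504 from PRTN3, 0.704 from SPINK2 and 0.235 from AZU1, so distances near or above these values show little likeness. These ranks are descriptions of shared profiles in these libraries, which share depth, experiment and construct.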

How the data were processed

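RNA from sorted THP-1 cells (RNeasy, TruSeq kit, per the labels' protocols) gave 18 libraries. The deposited values are raw read counts per Ensembl gene, 1 table per library; FastQC, Trimmomatic, HISAT2, HTSeq and DESeq2 and the build GRCh38.p12 are named in the submitters' processing notes, without versions, and the annotation release and strand setting are not given there or in any other source used here. Entries that name no gene (23.8% to 30.9% of each table, 15.6% to 19.2% for reads with several alignments) were left out, so reads shared with near-identical copies are missing. Counts on their own limit precision at low levels: SPINK2, CTSG, MPO and CD34 have at most 28 reads a library.

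Genes were matched to symbols and lengths with GENCODE release 29. Differences came from edgeR 4.0.16 (R 4.3.3, limma 3.58.1) quasi-likelihood tests in 1 model of the 6 groups, with TMM scaling, its expression filter (count minimum 10; 15037 genes) and Benjamini-Hochberg adjustment over all tested genes in each of 12 comparisons, threshold 0.05. CPM are on the TMM scale, and log2 CPM use a prior count of 2. Intervals are 1.96 SE. The experiment numbers pair the libraries: deviations from group means correlated at 0.206 to 0.759 in the 45 same-number pairs (median 0.466; -0.395 for 90 other pairs), so the fit with number as a block is given where it changes a call. Replicates differed by more than sampling noise (chi-square per degree of freedom 5.48 to 48.7). The fits were run on simulated counts with the same dispersion for every gene, as a check of the calculation only. These libraries are less uniform, so that run lends the calls no support. The PRTN3 construct differences carry no p because they chose the gene. Alternatives were DESeq2 1.42.0, DESeq2 size factors, no filter, only the groups compared, each library left out, the 2 libraries with the most genes left out, and blocks. Named genes are the 10 members, every called gene of the 6 role lists up to 4 per list and comparison, the 3 nearest profiles of called members and of PRTN3 and AZU1, and tested genes around the chromosome 19 cluster; genes that passed with the block only were added after their values were seen. The members and lists were chosen with earlier results of these data known. Figures were drawn with matplotlib 3.10.9 in Python 3.11.15.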

Additional observations from a re-analysis of the deposited data

How the results depend on the processing

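Across the alternatives no member that passed reversed its direction. PRTN3 is left out of the numbers between constructs here, because its difference was known when the list was chosen. The replicate block raised the number of the other 6 passing for NIC1 over IRES to 2 with IL-4 and 1 unstimulated (0 each without it). With the block 5.44% and 5.37% of all genes passed there. For NIC1 over DNMAML the number rose from 1 to 5 in each state. The shares of all genes there were 1.44% and 1.65% without the block and 12.6% and 13.8% with it. For IL-4 in DNMAML cells the block gave 1 of 7 (0 without it), beside 9.95% of all genes. It changed no call in the other comparisons. Pairing libraries by construct and number gave 3 for IL-4 in DNMAML cells, beside 17% of all genes. Without the 2 libraries rich in detected genes, both blocks gave 0 there. Fits of only the groups compared, with fewer libraries, gave 0 and 0 for NIC1 over IRES and at most 1 in each state for NIC1 over DNMAML. Leaving out the 2 libraries rich in detected genes, the numbers were 0 and 0 for NIC1 over IRES. For NIC1 over DNMAML, SPINK2 unstimulated alone passed. The replicate block as well was an alternative chosen after seeing the data. With it LYZ with IL-4 alone passed for NIC1 over IRES, and AZU1, LYZ, SPINK2 and FLT3 in each state for NIC1 over DNMAML. With PRTN3 counted among the members, leaving out each library in turn gave at most 1 for NIC1 over IRES in each state. The losses of the SPINK2 call for NIC1 over DNMAML are given above. DESeq2, DESeq2 size factors and no filter gave the same numbers as the main fit when all 7 members were counted. With only the groups compared, SPINK2 did not pass the filter for DNMAML over IRES in either state and for IL-4 in DNMAML cells. This left 6 of the 7 members, PRTN3 among them, in those fits.

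Over all genes, NIC1 over IRES gave 30 and 35 calls, 818 and 808 with the block, 108 and 91 by DESeq2, 73 and 77 without a filter, 0 and 0 with only the groups compared and 11 and 0 without the 2 libraries. NIC1 over DNMAML gave 216 and 248, 1893 and 2082 with the block, 410 and 476 by DESeq2, 54 and 60 with only the groups compared and 71 and 180 without the 2 libraries. DNMAML over IRES gave 0 and 0, 14 and 22 with the block, 1 and 2 by DESeq2 and 1 and 2 without a filter. IL-4 gave 458, 493 and 441 calls in NIC1, DNMAML and IRES, 1323, 1496 and 1360 with the block, 2157, 2560 and 2256 when paired by construct and number (2349, 1732 and 1730 without the 2 libraries, also chosen after seeing the data), and 388, 259 and 191 with only the groups compared. Without the 2 libraries IL-4 gave 421, 297 and 287, and with the block as well 1301, 1015 and 1000. With the block and without the 2 libraries NIC1 over IRES gave 747 and 560, NIC1 over DNMAML 1252 and 1977 and DNMAML over IRES 6 and 2. The NIC1 minus DNMAML response difference gave 0, and 13 with that pairing (1 without the 2 libraries). The cause of these differences was not tested.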
